A study of Mus musculus with 4 samples.

Results

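The laminin chain genes and integrin subunit genes were followed in dorsal root ganglia (DRG), where sensory neurons and their glia sit beside the spinal cord. Members were chosen by gene symbol alone, as rows of the deposited table named for a laminin alpha, beta or gamma chain or for an integrin alpha or beta subunit. The rule matched 38 rows and gave 37 genes, 11 laminins and 26 integrins (18 alpha and 8 beta), of 48431 genes in all. Itgam was listed on a pair of rows, and the row with the higher mean was kept. The ganglia came from wild-type (WT) male mice of the strain label SW that had received methylglyoxal (MGO), a reactive dicarbonyl formed during glycolysis, by intraperitoneal injection at 2 mg/kg for 6 days. All 4 libraries (replicates 1 to 4) belong to this 1 group, and no age is given. No untreated group was analysed here, so none of the values measures a response to MGO, and each comparison is between genes of the same library or between libraries.

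Laminins are trimers of 1 alpha, 1 beta and 1 gamma chain that polymerize into the sheet of a basement membrane. In peripheral nerve, Schwann cells lay such a membrane around every axon unit, vessels and the perineurium carry their own, and loss of the Lama2 chain in mice and people impairs myelination. Integrins are dimers of 1 alpha and 1 beta subunit that span the cell membrane and tie it to matrix or to other cells. The alpha subunit largely sets what is bound, and Itgb1 is the beta subunit shared by most alpha subunits.

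The libraries were made with a kit that reads transcripts from their polyadenylated 3′ ends, so the stretch just before the poly(A) tail is the entry point for each value below. The last 30 bases of the principal GENCODE M21 transcript (build GRCm38) are shown for the 8 members averaging 50 CPM or more, which are read counts scaled to 1000000 per library, because these genes carry most of the signal described. Each sequence runs 5′ to 3′ on the gene's own strand, and capitals mark a polyadenylation signal, AATAAA or, failing that, ATTAAA, searched on that strand only.
Itgb1, chr8:128733171-128733200, plus strand: taaAATAAAaaggcctaaatacattaagtg
Lamb1, chr12:31329464-31329493, plus strand: aaagttgcggtttacagcacctgcttataa
Itga6, chr2:71856729-71856758, plus strand: gttgttgttctgaccttacttatttactgc
Itga7, chr10:128958253-128958282, plus strand: ttgtctatttATTAAAaagtatttgacaat
Lama4, chr10:39110159-39110188, plus strand: tttcAATAAAtcagagaccagccgcttcct
Itgb8, chr12:119158022-119158051, minus strand: atctAATAAAaacataaagaatatataaaa
Lamc1, chr1:153218922-153218951, minus strand: tAATAAAatctgaatatttgtaacccttta
Itgav, chr2:83806887-83806916, plus strand: gtacAATAAActtgaacgtgtggtgccagc
Among these 8, the windows of Lamb1 and Itga6 held neither signal. Both genes are annotated past the end of the transcript shown, to chr12:31329644 and chr2:71858416, and those further stretches were not searched. Over all members, 28 of 37 ends (75.7%) held 1 of the signals, beside 62.1% of the ends of 21901 protein-coding genes. A match describes the letters only, and where reads began was not measured here.

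Values are CPM. The step between low values implied 5576818 to 10138752 counted reads per library, so the floor used for genes at 0, set to 3 reads, corresponds to 0.296 to 0.538 CPM. All 10 listed neuronal markers were detected in every library, summing to 12388 to 15497 CPM. Replicates 1 and 2 (the first pair) stood apart from replicates 3 and 4 (the second pair), a split known from earlier results of these data whose origin is not known. The marker sums of myelinating Schwann cells were 28981 and 27944 CPM in the first pair, against 15587 and 15212 CPM in the second pair. Since separate animals are not stated, p-values cover library-to-library spread alone, part or all of which may be technical. A whole ganglion mixes cell types, and fewer cells of a type cannot be told apart from less RNA per cell. Reads from 3′ ends do not scale with transcript length, so levels are given in CPM, and comparisons between genes are repeated in CPM per kilobase of annotated exon.

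Of the 37 members, 23 (62.2%) were detected at 1 CPM or more in all 4 libraries, 8 of the 11 laminins and 15 of the 26 integrins. The background was 26.5% of all genes in the table and 54.4% of its protein-coding genes. Another 8 members lay below 1 CPM in every library (Lama1, Lamb3, Itga5, Itga8, Itgad, Itgae, Itgax and Itgb2), and 6 crossed that level between libraries (Lama3, Itga2, Itga10, Itga11, Itgb6 and Itgb7). By mean, 4 members reached 100 CPM, 7 lay between 10 and 100, 15 between 1 and 10, and 11 below 1. The signal was concentrated: the 8 highest members held 90.8% of all member CPM. All members summed to 1437 ± 184 CPM (SD, n = 4), which is 0.144% of a library. The integrins summed to 992 ± 83.4 CPM and the laminins to 446 ± 102 CPM (SD, n = 4 each). Integrins exceeded laminins in 4 of 4 libraries, 2.28 ± 0.334 times in CPM and 3.88 ± 0.716 times per kilobase (SD, n = 4). The exact two-sided sign-flip test gave p = 0.13, the smallest that 4 libraries allow.

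**Figure D1:**
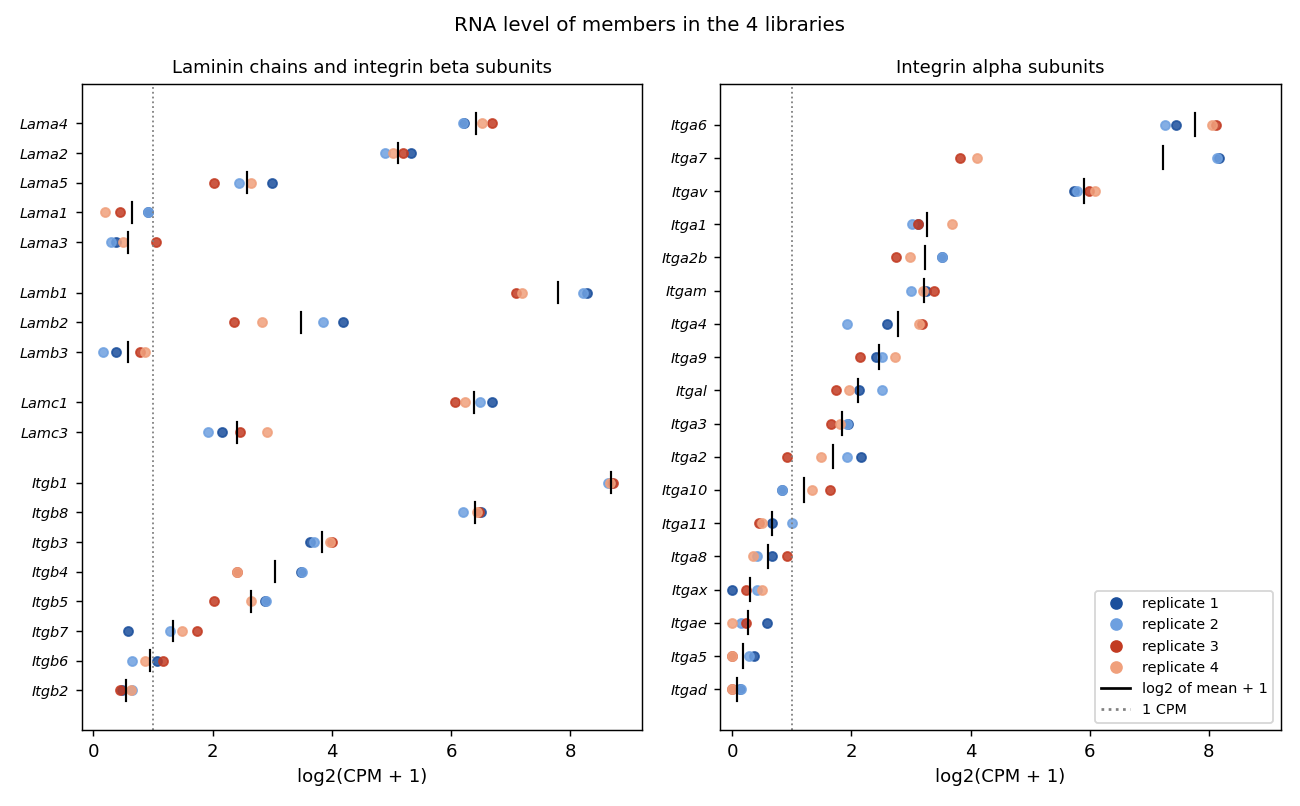
Level of the members as log2(CPM + 1), by class, with 1 point per library (replicates 1 and 2 in blue, 3 and 4 in red), a bar at the log2 of the mean + 1 and a dotted line at 1 CPM. Itgb1 leads with 396 to 420.5 CPM, and Itga7 is the member whose libraries lie farthest apart, at 279 to 287 CPM in the first pair and 13.1 to 16.3 CPM in the second pair.

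The laminin alpha chains carry the cell-binding domain of the trimer. Lama4, an alpha chain of vessel walls and of the endoneurium, had 73.0 and 72.5 CPM in the first pair, against 102.6 and 91.1 CPM in the second pair. Lama2, the alpha chain of muscle and Schwann cell basement membranes, had 39.0, 28.7, 35.5 and 31.6 CPM in replicates 1 to 4. Lama5, an alpha chain of many epithelial and vessel basement membranes, had 7.003, 4.46, 3.05 and 5.26 CPM. The order was the same in all libraries, with Lama4 above Lama2 and Lama2 above Lama5. Lama4 took 67.9 ± 5.05% and Lama2 27.2 ± 3.63% of the summed alpha chain CPM (SD, n = 4), and 72.7% and 21.6% of the sum per kilobase. Lama4 was 2.54 ± 0.478 times Lama2 in CPM and 3.44 ± 0.647 times per kilobase (SD, n = 4), higher in 4 of 4 libraries on both scales. Lama1, best known from early embryos, had 0.888, 0.891, 0.359 and 0.138 CPM. Lama3, the alpha chain of epidermal anchoring membranes, had 0.296, 0.223, 1.08 and 0.415 CPM. Both came from 1 to 9 reads per library, and neither could be ranked above the other, with Lama1 higher in 2 of 4 libraries.

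Among beta chains, Lamb1, the partner in most early and nerve laminins, had 311 and 296 CPM in the first pair, against 134 and 145 CPM in the second pair. It was the highest laminin in every library, and its pairs of libraries did not overlap. Lamb2, the beta chain enriched at neuromuscular synapses and in the kidney filter, had 17.2 and 13.4 CPM in the first pair, against 4.12 and 6.09 CPM in the second pair. Lamb3, a partner of Lama3, had 0.296, 0.111, 0.717 and 0.831 CPM, or 1 to 6 reads. Lamb1 held 95.6 ± 0.753% of the beta chain sum in CPM and 93.0 ± 1.18% per kilobase (SD, n = 4). That share varied little, and Lamb1 and Lamb2 were both higher in the first pair.

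Among gamma chains, Lamc1, the chain of most laminins, had 102 and 88.5 CPM in the first pair, against 65.6 and 74.3 CPM in the second pair. Lamc3, a gamma chain described in brain, retina and skin, had 3.45, 2.79, 4.48 and 6.51 CPM in replicates 1 to 4. Lamc1 made up 92.5 ± 3.67% of the gamma chain sum in CPM and 90.8 ± 4.36% per kilobase (SD, n = 4) and was above Lamc3 in all libraries. Beside the low levels of Lama3 and Lamb3, the keratinocyte marker list summed to 0.897 to 1.94 CPM. None of its 6 genes was detected in all libraries, and Krt5 and Col17a1 were at 0. Trp63, the highest of the list, had 1.58, 1.45, 0.897 and 1.66 CPM in replicates 1 to 4. It made up most of the sum in every library.

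The summed chains were unequal. Beta chains averaged 232 ± 101 CPM, alpha chains 124 ± 14.97 CPM and gamma chains 88.9 ± 14.1 CPM (SD, n = 4 each). The beta sum was above the gamma sum in 4 of 4 libraries, 2.54 ± 0.791 times in CPM and 2.14 ± 0.689 times per kilobase (SD, n = 4). The ratio of alpha to gamma chains depended on the scale, at 1.44 ± 0.389 in CPM and higher in 4 of 4 libraries, but 0.906 ± 0.244 per kilobase and higher in 1 of 4 libraries. Beta over alpha was 2.74 and 2.90 in the first pair, against 0.977 and 1.18 in the second pair, on the CPM scale. In CPM the beta sum was thus well above the alpha sum in the first pair and about level with it in the second, while per kilobase it was above it in 4 of 4 libraries, 2.62 ± 1.38 times (SD, n = 4).

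To test laminin levels within libraries, each gene was set against Lamc1, the shared gamma chain, with limma on the difference in log2(CPM + 1), and p-values were adjusted over all 14816 other genes that averaged 1 CPM or more. Of the 7 other laminins that passed this filter, 1 was higher than Lamc1 and 5 were lower at an adjusted p under 0.05 in limma. Over all genes, 8.81% were called higher and 78.5% lower, so a member below Lamc1 is no more than the common case. The fit, here and against Itgb1 below, took the 4 libraries as independent. The libraries fall into 2 pairs, so its p-values may be too small. Lamb1 was 2.51-fold above Lamc1 (log2 difference 1.33, SE 0.22, limma adjusted p = 0.000842), above it in 4 of 4 libraries, and 2.01-fold above it per kilobase (limma adjusted p = 0.00216). Lama4 differed from Lamc1 by a mean log2 difference of 0.04 (SE 0.25, limma adjusted p = 0.875) and was higher in 2 of 4 libraries. Its ratio to Lamc1 was 0.718 and 0.820 in the first pair, against 1.56 and 1.23 in the second pair, in CPM. The small mean difference thus joins opposite orders in the 2 pairs. Per kilobase the log2 difference of Lama4 was -0.45 (limma adjusted p = 0.0843), so the 2 levels could not be ranked. Lama2 lay 2.39-fold below Lamc1 in CPM (log2 difference -1.26, SE 0.20, limma adjusted p = 0.000738) and 3.55-fold below it per kilobase. Lamb2, Lama5 and Lamc3 lay 8.35-fold, 14.3-fold and 16.1-fold below Lamc1 on the log2(CPM + 1) scale, which understates the difference of low genes. Folds per kilobase from limma, here and against Itgb1 below, use log2(CPM per kilobase + 1) and are understated too. On that scale values are smaller, with means of 2.06 for Lama2 and 9.98 for Lamc1.

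**Figure D2:**
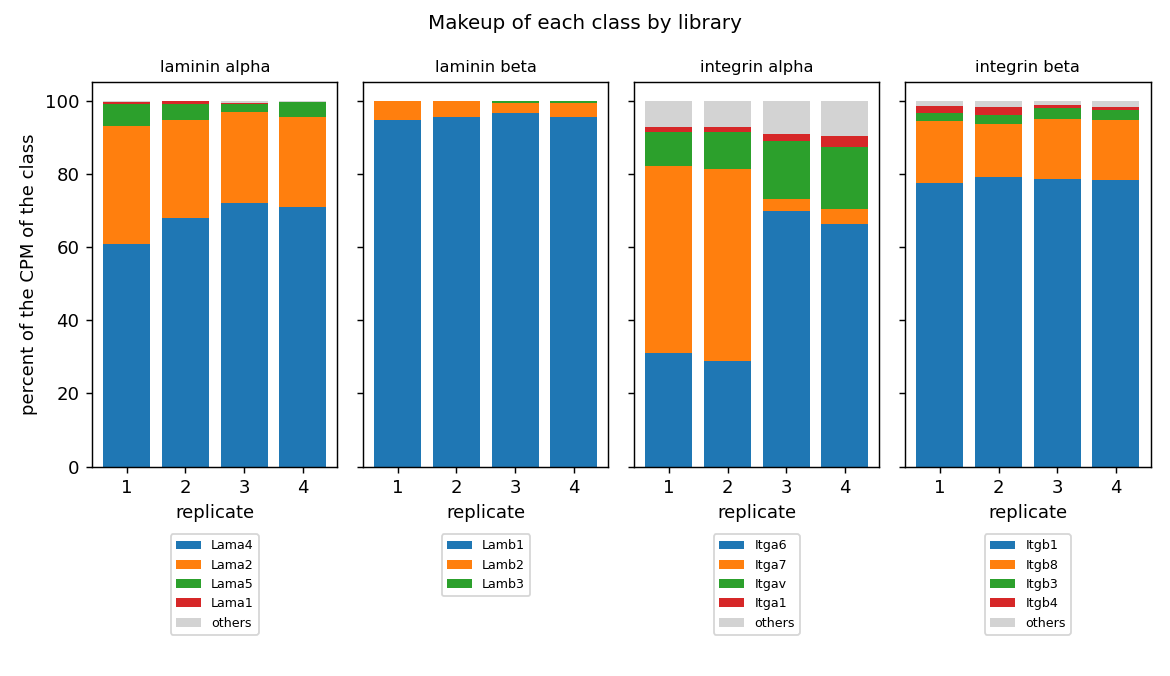
Makeup of each class in each library, as percent of the summed CPM of the laminin alpha and beta chains and the integrin alpha and beta subunits, with 1 bar per replicate. Lamb1 and Itgb1 keep most of their class throughout, while Itga7 takes 51.8% of the alpha subunit CPM over replicates 1 and 2 and 3.71% over replicates 3 and 4.

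Itgb1, the beta subunit of the laminin, collagen and fibronectin receptors, was the highest member and ranked 306 by mean among all genes of the table. It had 409.7, 396, 420.5 and 406 CPM in replicates 1 to 4, or 408 ± 10.2 CPM (SD, n = 4). No library stood out, and the library pairs overlapped. Itgb1 made up 78.4 ± 0.781% of the beta subunit CPM and 88.3 ± 0.335% of the sum per kilobase (SD, n = 4). Itgb8, which pairs with Itgav to activate latent transforming growth factor beta, came next with 90.1, 72.6, 87.5 and 85.7 CPM. It took 16.1 ± 1.08% of the beta subunit CPM, but 6.70 ± 0.496% per kilobase, as its annotated exons are longer (11.1 kb, against 4.08 kb for Itgb1).

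Of the laminin-binding alpha subunits, Itga6, which forms receptors with Itgb1 and with Itgb4, had the highest mean. Itga6 had 173 and 153 CPM in the first pair, against 276 and 264 CPM in the second pair. Itga7, the laminin receptor subunit of muscle and Schwann cells, had 287 and 279 CPM in the first pair, against 13.1 and 16.3 CPM in the second pair. Itga3, a receptor subunit for epithelial laminins, had 2.86, 2.79, 2.15 and 2.49 CPM in replicates 1 to 4. Itga6 was thus below Itga7 in replicates 1 and 2 and far above it in replicates 3 and 4, and the pair had no single order. The ratio of Itga6 to Itga7 was 0.605 and 0.547 in the first pair, against 21.1 and 16.1 in the second pair, in CPM. Itgb4, the beta subunit that pairs with Itga6 in hemidesmosomes and in myelinating Schwann cells, had 10.2 and 10.2 CPM in the first pair, against 4.30 and 4.29 CPM in the second pair. Itgb4 was 0.0394 ± 0.0273 of Itga6 in CPM and 0.0507 ± 0.0351 per kilobase (SD, n = 4), lower in all libraries.

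Itga7, at chr10:128933818-128958282 on the plus strand, was 19.2-fold higher in replicates 1 and 2 than in replicates 3 and 4 (282.9 against 14.7 CPM). Within a pair the libraries were close, with 2907 and 2505 reads in replicates 1 and 2 and 73 and 118 reads in replicates 3 and 4. Among the 1816 genes averaging 100 CPM or more, only Itga7 and Gm22710 parted that far in this direction. The genes beside Itga7 were also higher in replicates 1 and 2, Bloc1s1 by 6.72-fold, Rdh5 by 5.07-fold and Cd63 by 4.85-fold. Mettl7b, which overlaps the end of Itga7 on the opposite strand, had 0.197 CPM in replicate 1 and was listed at 0 in the other libraries. The myelinating Schwann cell sum averaged 28463 CPM in the first pair and 15399.7 CPM in the second pair, with 3 of its 8 markers at least 2-fold higher in replicates 1 and 2 and none lower, beside 24.1% of all genes higher. Satellite glia markers averaged 1215 CPM in the first pair and 598 CPM in the second pair, with 2 of 6 higher by the same rule and none lower by it. That sum was led by Apoe, at 764 and 295 CPM. Cdh19 (52.5 and 71.0 CPM) and Kcnj10 (18.2 and 25.1 CPM) were higher in the second pair, and the other markers in the first. The skeletal muscle sum was 1171 CPM in the first pair and 821 CPM in the second pair, with 1 of 6 genes higher by the same rule and none lower by it. That gene was Myh4, at 396 and 90.6 CPM, and it made up most of the difference between the sums. Ttn, the highest of the list, was higher in the second pair, at 280 and 339 CPM, and the others were higher in the first. The part of these cell types in the Itga7 difference was not tested.

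The RGD-binding alpha subunits recognise a short motif in fibronectin, vitronectin and related ligands. Itgav, which joins several beta subunits, had 52.0, 54.0, 62.4 and 67.0 CPM in replicates 1 to 4. Itga2b, the alpha subunit of the platelet fibrinogen receptor, had 10.5 and 10.5 CPM in the first pair, against 5.74 and 6.92 CPM in the second pair. Itga8, a receptor subunit in kidney development, and Itga5, the classical fibronectin receptor subunit, stayed below 1 CPM, at 2 to 6 reads and 0 to 3 reads per library. Itga5 was listed at 0 in replicates 3 and 4, where the floor of 3 reads was 0.538 and 0.415 CPM. Itga2b was below its partner Itgb3 in 4 of 4 libraries, at 0.661 ± 0.275 of it in CPM and 0.715 ± 0.297 per kilobase (SD, n = 4). The platelet list summed to 15.3 CPM in the first pair and 4.40 CPM in the second pair. That sum was led by Pf4, with 1 of its 6 genes detected in all libraries and Gp1ba at 0, and its part in the Itga2b level was not tested.

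The beta partners of Itgav were unequal. Itgb8 was 1.44 ± 0.202 times Itgav in CPM and 1.40 ± 0.196 times per kilobase (SD, n = 4), higher in 4 of 4 libraries. Itgb3, the beta subunit of vitronectin and platelet receptors, had 11.3, 12.03, 15.1 and 14.7 CPM. Itgb5, a vitronectin receptor subunit, had 6.31, 6.46, 3.05 and 5.26 CPM. Itgb6, mostly an epithelial subunit, had 1.08, 0.557, 1.26 and 0.831 CPM. The order Itgb8, Itgb3, Itgb5, Itgb6 held in every library.

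The collagen-binding alpha subunits were low throughout. Itga1, a receptor for basement membrane and fibrillar collagens, had 7.69, 7.13, 7.71 and 11.9 CPM in replicates 1 to 4, with replicate 4 above the other libraries. Itga2, a platelet and epithelial collagen receptor, had 3.45 and 2.79 CPM in the first pair, against 0.897 and 1.80 CPM in the second pair. Itga10, known from cartilage, had 0.789 and 0.780 CPM in the first pair, against 2.103 and 1.52 CPM in the second pair. Itga11, known from fibroblasts, had 0.592, 1.00, 0.359 and 0.415 CPM. Together these 4 genes summed to 12.7 ± 2.03 CPM (SD, n = 4), and the library pairs overlapped.

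Itga4 and Itga9 bind fibronectin segments, vascular adhesion molecules or tenascin. Itga4 had 5.03 and 2.79 CPM in the first pair, against 8.07 and 7.75 CPM in the second pair. Its exons overlap those of Cerkl on the opposite strand, which had 8.68, 5.57, 6.28 and 4.29 CPM in replicates 1 to 4. As the strand setting of the counting is not given, reads of Itga4 and Cerkl cannot be told apart with certainty. In all, 12 members share exon bases with another annotated gene, among them Itgam, Itgav, Itgb4 and Itga7, and their values are uncertain to that extent. Itga9 had 4.34, 4.68, 3.41 and 5.68 CPM and did not separate the library pairs.

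The leukocyte subunits were led by Itgam, the alpha subunit of the myeloid complement receptor, with 8.58, 7.02, 9.50 and 8.17 CPM. Itgal, the alpha subunit of the lymphocyte receptor for intercellular adhesion molecules, had 3.35, 4.68, 2.33 and 2.91 CPM. Itgb2, the beta subunit they share with Itgax and Itgad, had 0.395, 0.557, 0.359 and 0.554 CPM, from 4, 5, 2 and 4 reads. Itgb2 was thus listed below Itgam and Itgal in every library, and Itgam exceeded Itgal in 4 of 4. Itgb7, the beta subunit of gut-homing receptors, had 0.493 and 1.45 CPM in the first pair, against 2.33 and 1.80 CPM in the second pair. Itgax of dendritic cells, Itgae of intraepithelial lymphocytes and Itgad of macrophages had 0 to 3, 0 to 5 and 0 to 1 reads per library. Macrophage markers summed to 292 CPM in the first pair and 248 CPM in the second pair, with 5 of 8 detected and Cd68 below 1 CPM in every library. That sum was led by C1qa, at 188 and 120 CPM. Mrc1 (48.4 and 90.2 CPM) and Ptprc (6.03 and 8.04 CPM) were higher in the second pair, and the other markers in the first. T and B cell markers summed to 0.789 to 2.08 CPM, with none of 7 detected in all libraries and Cd4 at 0. Neutrophil and mast cell markers, led by S100a9, summed to 225 CPM in the first pair and 34.2 CPM in the second pair, while Itgam had 7.80 and 8.84 CPM in the same pairs.

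Against Itgb1, tested in the same way, all 17 other integrins that averaged 1 CPM or more were lower in limma at an adjusted p under 0.05. The background was 96.5% of genes lower and 1.07% higher, so the count repeats the high level of Itgb1 and says little of the members. By the mean over all 4 libraries the nearest was Itga6, 1.94-fold below Itgb1 (log2 difference -0.96, SE 0.20, limma adjusted p = 0.00391). Itga6 was lower in 4 of 4 libraries, and 4.16-fold below Itgb1 per kilobase. Itgb8 was 4.83-fold below Itgb1 (log2 difference -2.27, SE 0.15, limma adjusted p = 1.05e-05) and 11.8-fold below it per kilobase. Itgav was 6.87-fold below Itgb1 in CPM and 15.6-fold below it per kilobase. Itga7 was 6.14-fold below Itgb1 with a wide error (log2 difference -2.62, SE 0.90, limma adjusted p = 0.0294), and its log2 difference per kilobase was -3.33 (limma adjusted p = 0.0102). That mean joins unlike pairs: Itga7 was 0.700 and 0.705 of Itgb1 in the first pair, against 0.0311 and 0.0403 in the second pair, in CPM. In the first pair Itga7 was thus nearer to Itgb1 than Itga6 was, at 0.423 and 0.385 of Itgb1. The CPM call was lost without replicate 3 (-1.86, limma adjusted p = 0.0968) or without replicate 4 (-1.97, limma adjusted p = 0.0992). The other members ranged down to Itga10, 183-fold below Itgb1 on the log2(CPM + 1) scale. The 12 alpha subunits that can pair with Itgb1 summed to 450.5 ± 84.7 CPM (SD, n = 4), and Itgb1 was 0.762 and 0.779 of that sum in replicates 1 and 2, against 1.12 and 1.07 in the second pair, in CPM. Per kilobase Itgb1 exceeded the sum in 4 of 4 libraries, 2.06 ± 0.503 times (SD, n = 4).

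**Figure D3:**
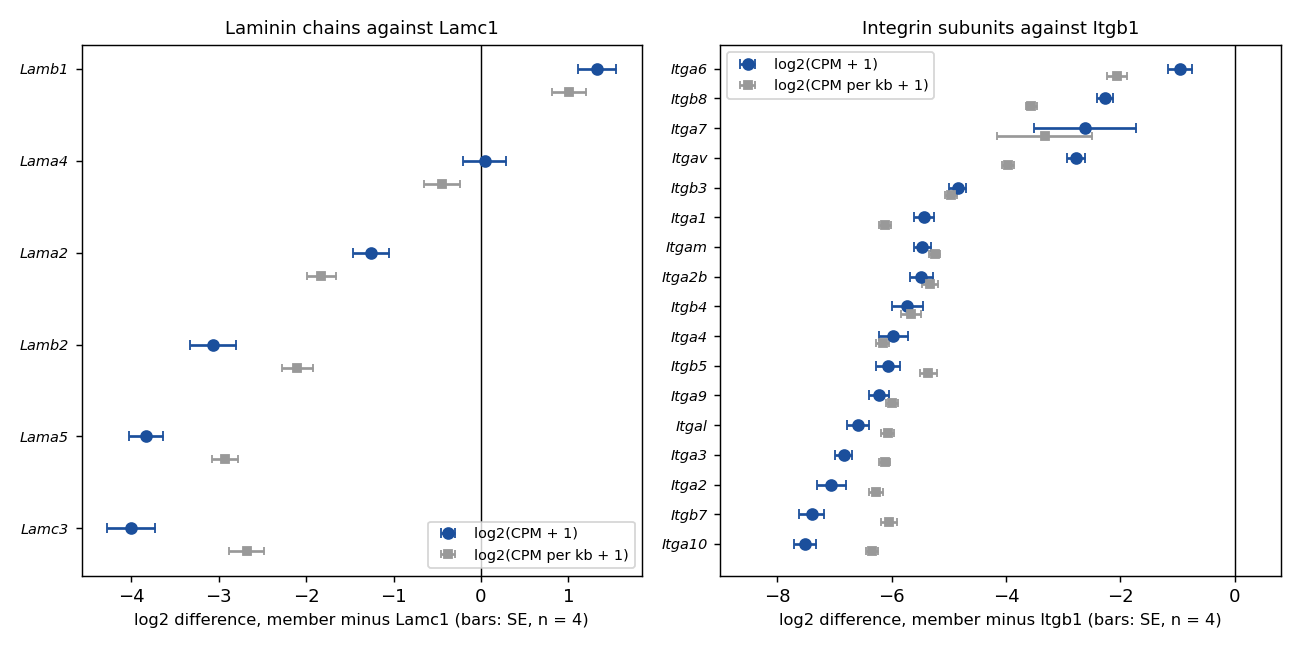
Mean within-library log2 difference of laminins from Lamc1 and of integrins from Itgb1, for members averaging 1 CPM or more, in log2(CPM + 1) (blue) and in log2(CPM per kilobase + 1) (grey), with bars of 1 standard error from limma (n = 4). Lamb1 sits above the line of Lamc1 on both scales, and every integrin shown sits below the line of Itgb1. The mean of Lama4 is near the line of Lamc1, though in CPM Lama4 was below Lamc1 in the first pair and above it in the second pair.

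Most orders within a class repeated across libraries. Of 197 pairs of members of the same class, 167 had the same order in 4 of 4 libraries in CPM. Of those 167, 2 turned round in mean per kilobase, both among integrin alpha subunits. Some others kept their order per kilobase in mean but not in every library. Among these, Itga1 was above Itga2, and Itgb4 above Itgb7, in 2 of 4 libraries per kilobase. Neighbours in the order were less settled: 14 of 32 neighbouring pairs kept their order in all libraries. All neighbouring pairs did so among laminin beta chains, 3 of 4 among laminin alpha chains, 4 of 7 among integrin beta subunits and 3 of 17 among integrin alpha subunits. Itga1, Itga2b and Itgam, with means of 8.61, 8.40 and 8.32 CPM, could not be ranked in CPM, and neither could Itga6 against Itga7 nor Itga7 against Itgav. Per kilobase, Itga1 was below both Itga2b and Itgam in 4 of 4 libraries (mean log2 ratios of Itga1 to them -1.73 and -1.84).

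Between the library pairs, 26 members that averaged 1 CPM or more were compared without a test, since there are 2 libraries on each side and the split is no condition of the study. Replicates 1 and 2 lay at least 2-fold above replicates 3 and 4, with no overlap, for 5 members (19.2%), Lamb1, Lamb2, Itga2, Itga7 and Itgb4, beside 24.1% of all 14817 genes with that mean. They lay at least 2-fold below for 4 members (15.4%), Itga4, Itga10 and Itgb7 among them, beside 12.8% of all genes. Both shares are near the background. Lamb1 was 2.17-fold and Lamb2 2.99-fold higher in replicates 1 and 2, and Itgb4 2.37-fold. Itga4 was 2.02-fold and Itgb7 2.13-fold lower in replicates 1 and 2. Without replicate 3, 2 members rather than 4 were lower. The median log2 difference of replicates 1 and 2 minus replicates 3 and 4 was -0.02 for the members and 0.16 for all genes. That difference went with length: split into 4 bins by exonic length, the genes of the shortest bin had a median of 0.77 and those of the longest -0.22. The members were long, with a median of 7.02 kb of annotated exon over all 37. The median was 4.66 kb for protein-coding genes averaging 1 CPM or more, and Itga7 itself had 8.09 kb. The part of length in the members' differences was not tested.

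**Figure D4:**
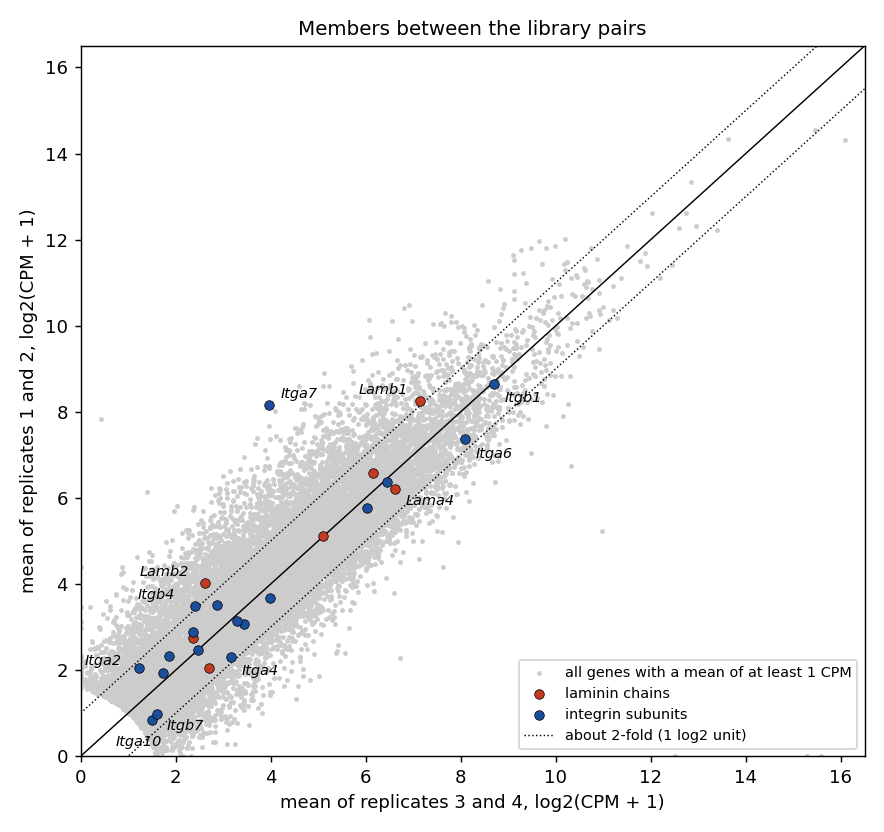
Mean of replicates 1 and 2 against the mean of replicates 3 and 4, both in log2(CPM + 1), for all genes averaging 1 CPM or more (grey), laminin chains (red) and integrin subunits (blue), with dotted lines 1 log2 unit from equality. Most members lie near the diagonal, and Itga7 lies apart at 282.9 CPM in the first pair against 14.7 CPM in the second pair.

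The libraries repeated the members closely within a pair, but less so between the pairs. Of the 26 members averaging 1 CPM or more, 10 were higher in the first pair with no overlap. Another 10 were higher in the second pair with no overlap, and in 6 the pairs overlapped. The same counts were not taken over all genes, so they are not read as particular to the members. Within a pair, the median absolute log2 difference was 0.17 for the members and 0.20 for all genes, and between pairs it was 0.51 for the members and 0.64 for all genes. The median SD of log2(CPM + 1) over the 4 libraries was 0.39 for the members and 0.44 for all genes.

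The proteins that surround laminins and integrins were read from lists of the same pathway. Of 15 basement membrane partners, 12 were detected in all libraries, with a median level of 31.8 CPM. They were led by Sparc, a collagen-binding matricellular protein, at 666 ± 110.0 CPM, then Hspg2 (perlecan) at 275 ± 30.9 CPM and Agrn (agrin), which binds laminin, at 273 ± 49.4 CPM (SD, n = 4 each). The collagen IV chains Col4a3 and Col4a6 stayed below 1 CPM. Of 14 non-integrin laminin receptor genes, 12 were detected, with a median of 26.2 CPM. Utrn, which links dystroglycan to actin, had 239 CPM in the first pair and 415 CPM in the second pair. Dag1, the dystroglycan receptor of laminin alpha chains, averaged 269 ± 25.6 CPM (SD, n = 4). Rpsa, at 267 ± 86.6 CPM (SD, n = 4), has many processed copies in the genome, so its value is uncertain, and Sgca stayed below 1 CPM. Between the library pairs, 1 of 13 partners and 2 of 13 receptors that averaged 1 CPM or more were at least 2-fold higher in replicates 1 and 2, and 1 and 2 were lower, beside 24.1% of all genes higher and 12.8% lower.

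Of 22 other integrin ligand genes, 15 were detected, with a median of 3.90 CPM. Cdh1, the E-cadherin ligand of Itgae, averaged 807 ± 158 CPM (SD, n = 4), although Itgae itself had 0 to 5 reads. Fn1 (fibronectin) averaged 79.6 ± 15.8 CPM and Spp1 (osteopontin) 71.7 ± 13.4 CPM (SD, n = 4 each). Fgb was listed at 0 in every library, and Tnn, Icam2, Madcam1 and Fga stayed below 1 CPM. Of 31 genes of the integrin activation and adhesion complex, 26 were detected, with a median of 22.9 CPM. Cd47, an integrin-associated membrane protein, had 748 CPM in the first pair and 1208 CPM in the second pair. Cd9, a tetraspanin that binds integrins, had 427 and 392 CPM in the first pair, against 76.6 and 57.0 CPM in the second pair. Flna, an actin crosslinker that binds integrin tails, had 242 and 116 CPM in the same pairs. In this list 9 of 27 genes that averaged 1 CPM or more were at least 2-fold higher in replicates 1 and 2 and 1 was lower, beside 24.1% and 12.8% of all genes. Ilk, an adapter kinase of integrin tails, Parvg and Lims2 stayed below 1 CPM, and Fermt1 was listed at 0 in every library.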

How the data were processed

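RNA was measured in 4 libraries of the 1 group. Per the labels' protocols, TRIzol RNA was depleted of ribosomal RNA and made into QuantSeq 3′ libraries. The tools named, per the submitters' processing notes, were Cufflinks 2.2.1, Bowtie2 2.2.9, TopHat2 2.1.1 and FastQC 0.11.5, with builds mm10 and GRCm38.p4 and no roles. Which annotation and strand setting were used is not given in the sources used here. Values in the deposited table, headed TPM, behaved as CPM: each library had its own step, and at least 98.2% of its values above 0 were whole multiples of it to within 0.05 steps, and each library summed to 1000000. The steps give 10138752, 8975700, 5576818 and 7223777 reads in replicates 1 to 4. The 3-read floor covers counting error only. No count test was run, since no contrast between groups exists.

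Identifiers were looked up in GENCODE M21, where 48052 (99.2%) had an entry. Levels were compared within libraries as differences of log2(CPM + 1) from Lamc1 or Itgb1, using limma 3.58.1 (R 4.3.3; two-sided, an intercept alone, Benjamini-Hochberg over genes averaging 1 CPM or more). An exact sign-flip test was used for ratios. The limma step was tested on simulated data. Python 3.11.15, numpy 2.4.6 and pandas 2.3.3 were used. Every member may be named, with the 3 highest genes of each related list and those below 1 CPM throughout, and the highest of each marker list. Genes beside Itga7, markers at 0 and the markers Cdh19, Kcnj10, Myh4, Mrc1 and Ptprc were chosen after their values were seen. Members, lists and the split of the libraries were chosen with earlier results of these data known. Alternatives were each replicate left out, rescaling without 18S and mitochondrial entries, other pseudocounts, filters and detection levels, values per kilobase, the library pair as a term and a trended variance. Class sums per kilobase were added after seeing the data. The values of 1 member are not reported here, though it is in the counts and sums.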

Additional observations from a re-analysis of the deposited data

Results flagged for a closer look

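In the 56 levels and sums of the members examined for 1 library far from the other 3, 2 stood out, and chance gives about 1 in 20. Itga1, a collagen receptor subunit, had 11.9 CPM in replicate 4, against 7.13 to 7.71 CPM in the other libraries, a gap of 0.878 of the whole range. The summed beta partners of Itgav (Itgb3, Itgb5, Itgb6 and Itgb8) came to 91.7 CPM in replicate 2, against 106 to 109 CPM in the other libraries, a gap of 0.863 of the range.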

How the results depend on the processing

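No paired analysis was possible because the study has a single group, so replicate numbers pair nothing. A detection level of 5 CPM in place of 1 CPM left 13 members detected. Per kilobase of exon, the laminin sum was 0.0124% and the integrin sum 0.0465% of the library total, and the shares of Itgb1 and Lamb1 in their classes were 88.3% and 93.0%. Rescaling without 40 entries of 18S and mitochondrial RNA moved the integrin sum to 0.109%. With no filter on low values, 8 laminins were called lower than Lamc1. Between library pairs, members higher in replicates 1 and 2 numbered 8 at 1.5-fold, 1 at 4-fold and 3 at a mean of at least 10 CPM, and those lower numbered 0 both at 4-fold and at that mean. Leaving out 1 replicate gave 2 to 4 members lower in replicates 1 and 2. No share over all genes at these settings stands beside the counts of members here. None of these counts is read as particular to the members. The log2 difference of Lama4 from Lamc1 turned to -0.45 per kilobase, and lay between -0.16 and 0.21 with 1 replicate left out. The cause of these moves was not tested. Lamb1 stayed above Lamc1 under all 10 alternatives (limma adjusted p at most 0.00453). These alternatives share the same libraries and are not independent of each other. The fit with the library pair as a term takes its error from within the pairs only. Members with a mean below 1 CPM rest on at most 11 reads per library, which limits how they can be ordered.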

Other observations

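The dropped entry named Itgam, called Gm49368 in GENCODE M21, shares exons with the kept Itgam gene and had 0, 0.446, 0.897 and 0.138 CPM in replicates 1 to 4. In all, 12 of the 37 members share exon bases with another annotated gene. Itgav shares them with Gm13684, which had 2.66, 2.23, 2.51 and 4.85 CPM, and Itgb4 with B230344G16Rik, which had 1.48, 3.23, 2.69 and 2.21 CPM, both on the opposite strand. Itgad shares them with Cox6a2, a muscle subunit of cytochrome oxidase, which had 4.14, 7.69, 1.79 and 0.415 CPM, while Itgad had 0 or 1 read. Cd81 and Cd151, tetraspanins that bind laminin receptors and were picked after their values were seen, had 67.8 and 34.03 CPM over the first pair of libraries, against 6.56 and 6.44 CPM over the second pair.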
